A study of Homo sapiens with 18 samples.

Results

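The genes followed here encode the epidermal growth factor (EGF) receptor family and its ligands in HCT116 cells, a long-established line from a human colorectal carcinoma. The 8 members were chosen by gene symbol: 3 receptors (EGFR, ERBB2, ERBB3), 4 ligands (AREG, EREG, TGFA, HBEGF) and the inhibitor ERRFI1. All 8 were among the 31004 genes counted, and all 8 passed the filter on low counts in every comparison.

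The study asked which genes the long noncoding RNA CRLM1 and the nucleic acid binding protein hnRNPK regulate. RNA-seq was done on 18 libraries, 3 replicates in each of 6 groups. Every group was HCT116 with 1 of 3 backgrounds. The study's methods describe a lentiviral vector with puromycin selection to express CRLM1, and its results call CRLM1 overexpression stable in the hnRNPK experiment. The results also describe RNA-seq of cells transfected with CRLM1, antisense or control plasmid. How each of the 3 backgrounds was made is therefore not settled here. The Ctrl background held the empty vector, the CRLM1 background held CRLM1, and the Antisense background held its antisense sequence. Ctrl_NC, CRLM1_NC and Antisense_NC then received a negative control (NC), while Ctrl_hnRNPK, CRLM1_hnRNPK and Antisense_hnRNPK received an hnRNPK expression construct. Whether the replicates of a background came from separate transductions or transfections is not given in the sources used here. The p-values measure the spread between these libraries, and an effect of the insert cannot be told apart from a difference between cell populations.

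EGFR, ERBB2 and ERBB3 are receptor tyrosine kinases that signal as pairs. EGFR binds amphiregulin (AREG), epiregulin (EREG), transforming growth factor alpha (TGFA) and heparin-binding EGF (HBEGF). ERBB2 has no known ligand and serves as the partner of the others, and ERBB3 binds neuregulins but has little kinase activity of its own. The ligands are made as membrane-anchored precursors and are released by proteases, chiefly ADAM17. ERRFI1, also called MIG6, is induced by receptor signalling and binds and inhibits the receptor kinases. In colorectal cancer, EGFR is the target of therapeutic antibodies, and AREG and EREG have been studied as markers of response to them.

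The libraries held 19732681 to 27039520 counts each, and single members held between 306 counts (ERBB3) and 57850 counts (ERRFI1) in a library. Of 6 epithelial markers, 5 reached 1 CPM (counts scaled to a common library size), with a summed level of 1776 to 5558 CPM. The fibroblast list (1 of 4 genes at 1 CPM, sum 11.3 to 32.4), the leukocyte list (1 of 3, sum 0.785 to 4.63) and the endothelial list (0 of 3, sum at most 0.536) were low. The gene of CRLM1 (RP4-710M16.2) had 0 counts in the Ctrl groups. It was at 583 to 670 CPM in the CRLM1 groups and at 38.4 to 49.8 CPM in the Antisense groups. Whether the counting used strand is not given in the sources used here, so sense and antisense reads cannot be told apart. The HNRNPK gene was at 463, 471 and 480 CPM in Ctrl_NC and at 627, 657 and 490 CPM in Ctrl_hnRNPK. It was at 454 to 462 CPM in CRLM1_NC against 677, 717 and 581 in CRLM1_hnRNPK, and at 420 to 431 in Antisense_NC against 534, 533 and 573 in Antisense_hnRNPK. Reads of the construct and of the cell's own gene cannot be told apart in these values.

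Replicate 3 of Ctrl_hnRNPK and replicate 3 of CRLM1_hnRNPK stood apart from their groups. Over 12964 genes, Ctrl_hnRNPK replicate 3 correlated at 0.949 to 0.956 with its own group and at 0.989 to 0.990 with the Ctrl_NC libraries. CRLM1_hnRNPK replicate 3 correlated at 0.942 to 0.948 with its own group and at 0.983 with CRLM1_NC. The study left both out. Here all libraries enter each fit, and the values without these libraries are given beside them.

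AREG and EREG are neighbours on chromosome 4 (GRCh38). EREG lies at chr4:74365145-74388749 and AREG at chr4:74445136-74455005, both on the plus strand. The gap between them is 56.4 kb and holds 1 annotated gene, a long noncoding RNA, and 0 protein-coding genes. Because the 2 ligands showed the widest range of levels here, their promoters are shown, from 250 bases before to 50 bases after the start site (RefSeq, GRCh38.p14, plus strand). Capitals mark the TATA box (TATAAA), the cAMP response element (TGACGTCA) and its core (TGACG).
AREG, chr4:74444886-74445185: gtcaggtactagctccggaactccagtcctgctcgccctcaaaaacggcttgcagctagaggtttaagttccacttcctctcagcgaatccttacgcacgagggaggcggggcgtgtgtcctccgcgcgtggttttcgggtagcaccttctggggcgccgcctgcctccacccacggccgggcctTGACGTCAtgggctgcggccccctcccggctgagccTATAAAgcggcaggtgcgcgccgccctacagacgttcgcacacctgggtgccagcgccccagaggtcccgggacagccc
EREG, chr4:74364895-74365194: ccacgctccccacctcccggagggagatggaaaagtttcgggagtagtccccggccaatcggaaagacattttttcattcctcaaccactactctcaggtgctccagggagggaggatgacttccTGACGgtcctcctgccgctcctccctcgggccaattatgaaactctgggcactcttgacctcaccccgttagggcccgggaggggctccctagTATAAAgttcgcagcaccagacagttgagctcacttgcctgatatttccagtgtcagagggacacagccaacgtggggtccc

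In the AREG promoter, the TATA box began 29 bases before the start site and the full cAMP response element 65 bases before it. In the EREG promoter, the TATA box began 32 bases and the core 125 bases before the start site, and the full element was not found. The core is part of the full element. Searched on both strands of 35116 promoters of the same length, the TATA box letters occurred in 11.5%, the full element in 1.8% and the core in 24.6%. These matches describe the letters only.

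The other members lie elsewhere. EGFR is at chr7:55019017-55211628 (plus strand), ERBB2 at chr17:39687914-39730426 (plus) and ERBB3 at chr12:56076799-56103505 (plus). TGFA is at chr2:70447284-70554193 (minus), HBEGF at chr5:140332843-140346603 (minus) and ERRFI1 at chr1:8004404-8026309 (minus). Their transcripts differ in base composition. The GC content of the longest transcript was 36.1% for EREG, 43.5% for ERRFI1, 44.5% for TGFA, 45.3% for AREG, 47.8% for EGFR, 50.6% for HBEGF, 52.6% for ERBB3 and 57.5% for ERBB2.

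Levels were first compared between genes, using the deposited FPKM, which are divided by gene length. AREG was the most abundant member, with a median of 450 FPKM over the 18 libraries and a rank between 39 and 158 among all genes. ERRFI1 followed at 202 FPKM and EREG at 73.4 FPKM. TGFA (26.8 FPKM) and HBEGF (18.2 FPKM) were lower, and the receptors were lower still, at 8.66 FPKM for ERBB2, 6.65 for EGFR and 2.00 for ERBB3.

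**Figure D1:**
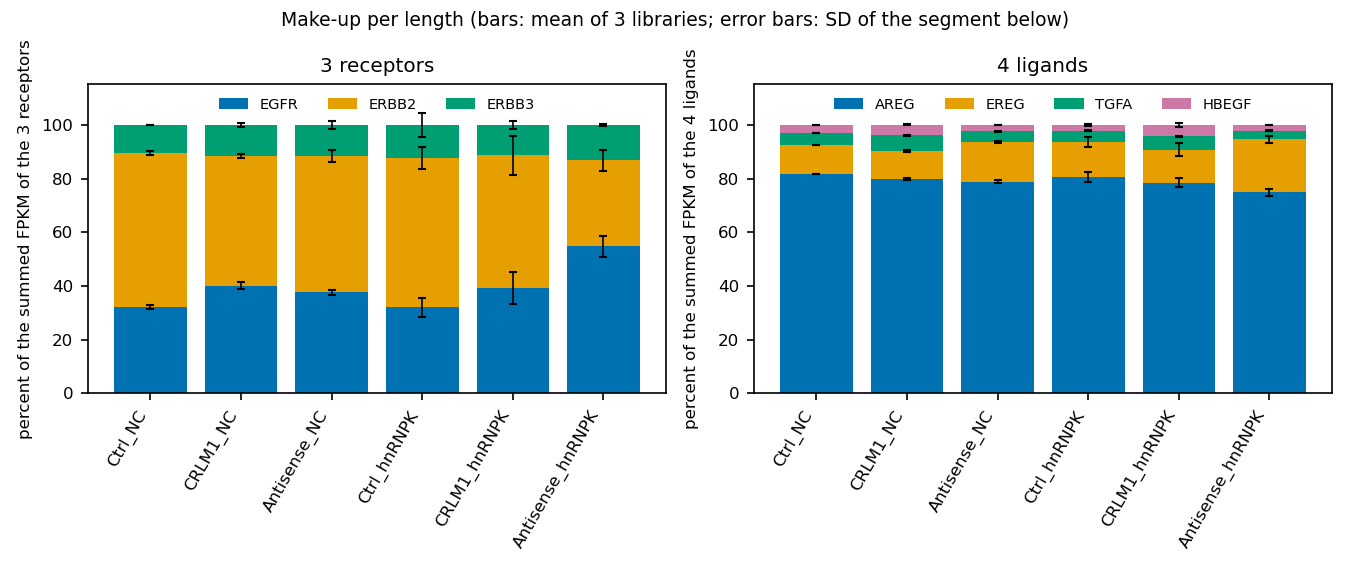
Stacked bars give the mean percent (3 libraries) of the summed FPKM of 3 receptors (left) and 4 ligands (right) in each of the 6 groups, with error bars for the SD of the segment below. AREG takes 74.8% to 81.7% of the ligand sum in every group, and EGFR takes 54.9% of the receptor sum in Antisense_hnRNPK against 32.1% to 40.1% in the other groups.

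AREG supplied most of the ligand FPKM in each group, from 74.8% ± 1.19 (SD, n = 3) in Antisense_hnRNPK to 81.7% ± 0.118 in Ctrl_NC. The share of EREG was 10.8% ± 0.123 in Ctrl_NC and 10.4% ± 0.282 in CRLM1_NC, but 14.9% ± 0.397 in Antisense_NC and 19.7% ± 1.30 in Antisense_hnRNPK. It was 13.3% ± 1.91 in Ctrl_hnRNPK and 12.3% ± 2.51 in CRLM1_hnRNPK. The ratio of AREG to EREG FPKM was 7.58 ± 0.0976 in Ctrl_NC, 7.68 ± 0.244 in CRLM1_NC, 5.31 ± 0.176 in Antisense_NC and 3.81 ± 0.303 in Antisense_hnRNPK. It was 5.06, 6.78 and 6.57 in the Ctrl_hnRNPK libraries and 5.65, 5.65 and 8.58 in those of CRLM1_hnRNPK, against 5.12 to 5.47 in those of Antisense_NC. Of the receptors, ERBB2 held 57.2% ± 0.760 of the sum in Ctrl_NC and 32.0% ± 3.86 in Antisense_hnRNPK. The ratio of EGFR to ERBB2 FPKM was 0.566 ± 0.0204 in Ctrl_NC, 0.829 ± 0.0393 in CRLM1_NC, 0.744 ± 0.0501 in Antisense_NC and 1.74 ± 0.353 in Antisense_hnRNPK. It was 0.581 ± 0.0915 in Ctrl_hnRNPK and 0.816 ± 0.225 in CRLM1_hnRNPK. EGFR exceeded ERBB2 in 3 of the 18 libraries, which were the 3 of Antisense_hnRNPK. No trend on GC content was removed from these shares and ratios. The paired genes differ in GC content, at 47.8% for EGFR and 57.5% for ERBB2, and 45.3% for AREG and 36.1% for EREG.

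Levels of one gene were compared between libraries as CPM. EREG had the widest range of group means, 4.09-fold from the lowest to the highest group. AREG followed with 2.01-fold, EGFR with 1.94-fold, ERBB2 with 1.91-fold, ERRFI1 with 1.76-fold and HBEGF with 1.73-fold. TGFA (1.45-fold) and ERBB3 (1.40-fold) varied least. Groups are said to overlap or not from their library values. How many of all genes were separated in the same way was not counted, so these statements describe the members only.

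**Figure D2:**
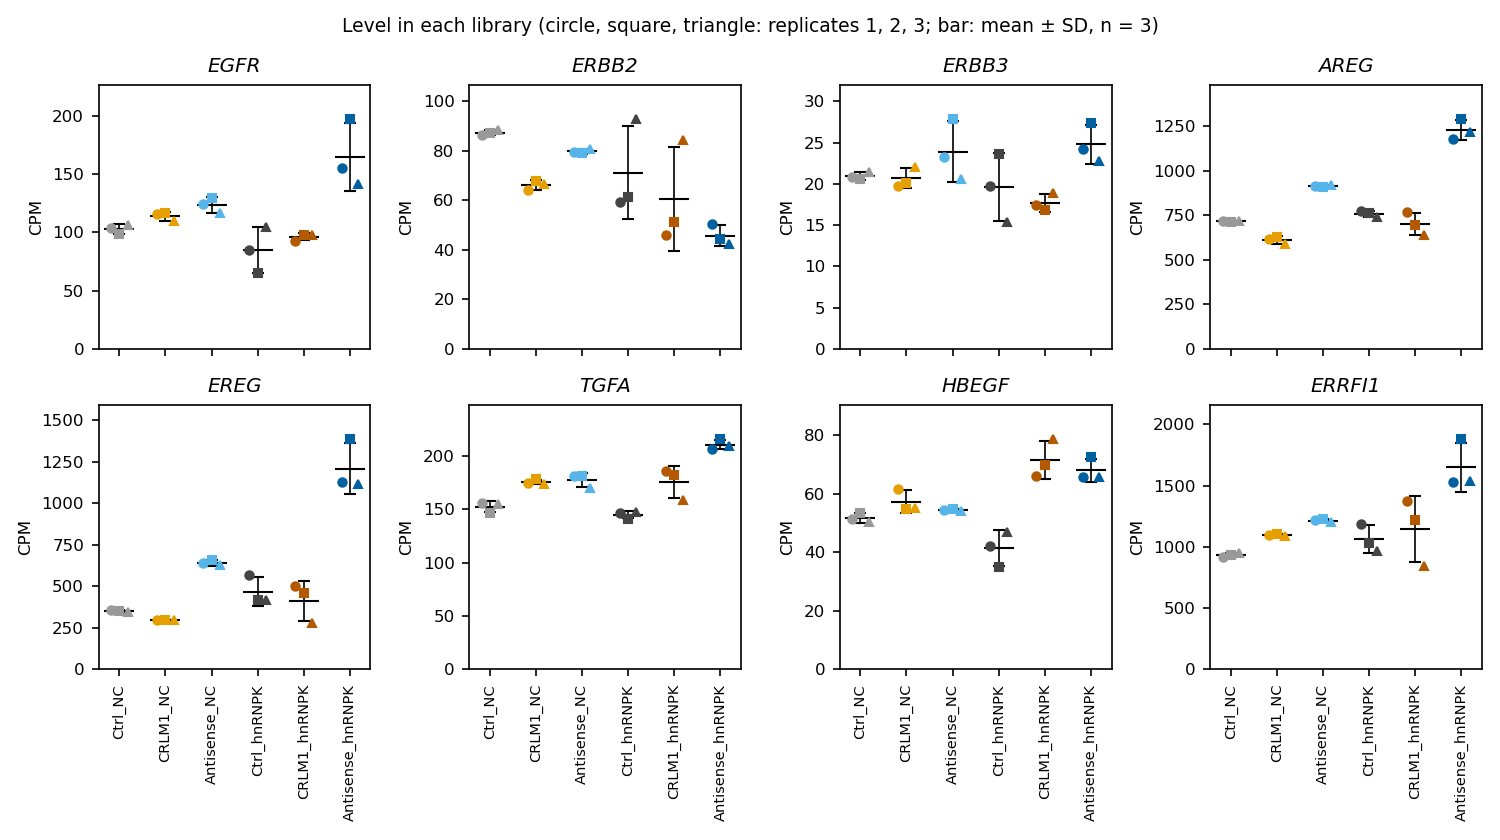
Level (CPM, linear axis from 0) of each member in every library of the 6 groups. Circles, squares and triangles are replicates 1, 2 and 3 and bars give mean ± SD (n = 3). For EGFR, AREG, EREG, TGFA and ERRFI1 the 3 Antisense_hnRNPK libraries lie above all other libraries. The share of all genes separated in this way was not counted. For ERBB2, replicate 3 of Ctrl_hnRNPK (92.8 CPM) and of CRLM1_hnRNPK (84.5 CPM) lies above the rest of its group.

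In Ctrl_NC, EGFR was at 103, 98.2 and 107 CPM (mean 103 ± 4.24), against 116, 116 and 110 CPM for CRLM1_NC and 124, 130 and 116 CPM for Antisense_NC. With the hnRNPK construct it was at 84.5, 65.6 and 105 CPM in the Ctrl background, 92.6, 97.9 and 97.9 CPM in CRLM1, and 155, 197 and 142 CPM in Antisense. The Antisense_hnRNPK libraries were above all others and overlapped with no group. In the order of means, Ctrl_hnRNPK and CRLM1_hnRNPK overlapped, as did CRLM1_NC and Antisense_NC, and the other neighbours did not.

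ERBB2 was at 86.3, 87.0 and 88.4 CPM in Ctrl_NC, at 64.0, 67.7 and 66.7 CPM in CRLM1_NC and at 79.6, 78.9 and 80.8 CPM in Antisense_NC. The 3 NC groups did not overlap. With the construct the values were 59.3, 61.2 and 92.8 CPM in Ctrl, 45.8, 51.3 and 84.5 CPM in CRLM1, and 50.4, 44.2 and 42.4 CPM in Antisense. Replicate 3 of the Ctrl and CRLM1 construct groups was above all NC libraries of their background, while replicates 1 and 2 were below all of them.

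ERBB3 was the weakest receptor, with group means from 17.7 ± 1.07 CPM in CRLM1_hnRNPK to 24.8 ± 2.35 CPM in Antisense_hnRNPK. Each pair of neighbours in its order of groups overlapped. The lowest library was Ctrl_hnRNPK replicate 3 (15.4 CPM) and the highest Antisense_NC replicate 2 (27.9 CPM).

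AREG was at 719, 713 and 718 CPM in Ctrl_NC, at 618, 628 and 587 CPM in CRLM1_NC and at 916, 907 and 920 CPM in Antisense_NC. With the construct it was at 773, 761 and 738 CPM in Ctrl, 767, 697 and 639 CPM in CRLM1, and 1176, 1290 and 1219 CPM in Antisense. CRLM1_NC was lowest and Antisense_hnRNPK highest, and among neighbours in the order only CRLM1_hnRNPK and Ctrl_NC overlapped.

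EREG was at 356, 353 and 348 CPM in Ctrl_NC, at 295, 298 and 295 CPM in CRLM1_NC and at 640, 660 and 627 CPM in Antisense_NC. With the construct the levels were 570, 418 and 419 CPM in Ctrl, 505, 459 and 278 CPM in CRLM1, and 1127, 1385 and 1118 CPM in Antisense. Both Antisense groups lay above all other libraries. Replicate 3 of CRLM1_hnRNPK was below the CRLM1_NC libraries, whereas replicate 3 of Ctrl_hnRNPK was above the Ctrl_NC libraries.

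TGFA averaged 152 ± 5.25 CPM for Ctrl_NC, 175 ± 2.19 for CRLM1_NC and 177 ± 6.74 for Antisense_NC, and 145 ± 3.61, 176 ± 14.6 and 211 ± 4.37 CPM in the same backgrounds with the construct. CRLM1_NC, CRLM1_hnRNPK and Antisense_NC overlapped as neighbours, and so did Ctrl_hnRNPK and Ctrl_NC. HBEGF was at 51.1, 53.5 and 50.3 CPM in Ctrl_NC, 61.6, 54.8 and 55.2 in CRLM1_NC and 54.4, 54.8 and 54.0 in Antisense_NC. With the construct it was at 42.1, 34.9 and 47.0 CPM in Ctrl, 65.9, 69.7 and 78.4 in CRLM1, and 65.6, 72.4 and 65.8 in Antisense. The Ctrl_hnRNPK libraries lay below, and the CRLM1_hnRNPK and Antisense_hnRNPK libraries above, all NC libraries.

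ERRFI1, the inhibitor, was at 920, 933 and 953 CPM in Ctrl_NC, 1098, 1104 and 1087 CPM in CRLM1_NC and 1216, 1226 and 1204 CPM in Antisense_NC. With the construct it was at 1191, 1029 and 971 CPM in Ctrl, 1372, 1220 and 844 CPM in CRLM1, and 1534, 1878 and 1537 CPM in Antisense. The 3 NC groups did not overlap, and replicate 3 of CRLM1_hnRNPK was below all other libraries.

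The first comparisons asked what CRLM1 or its antisense changed without the hnRNPK construct. Relative to Ctrl_NC, CRLM1_NC had lower ERBB2, AREG and EREG and higher EGFR, TGFA and ERRFI1. Antisense_NC had higher EREG, AREG, ERRFI1, EGFR and TGFA and lower ERBB2. A member is said to have changed where its adjusted p (edgeR's quasi-likelihood test, Benjamini-Hochberg over all genes tested) was at most 0.05. All member shifts against Ctrl_NC were under 2-fold, while 1.58% (CRLM1_NC) and 14.1% (Antisense_NC) of genes passed both the test and 2-fold.

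**Figure D3:**
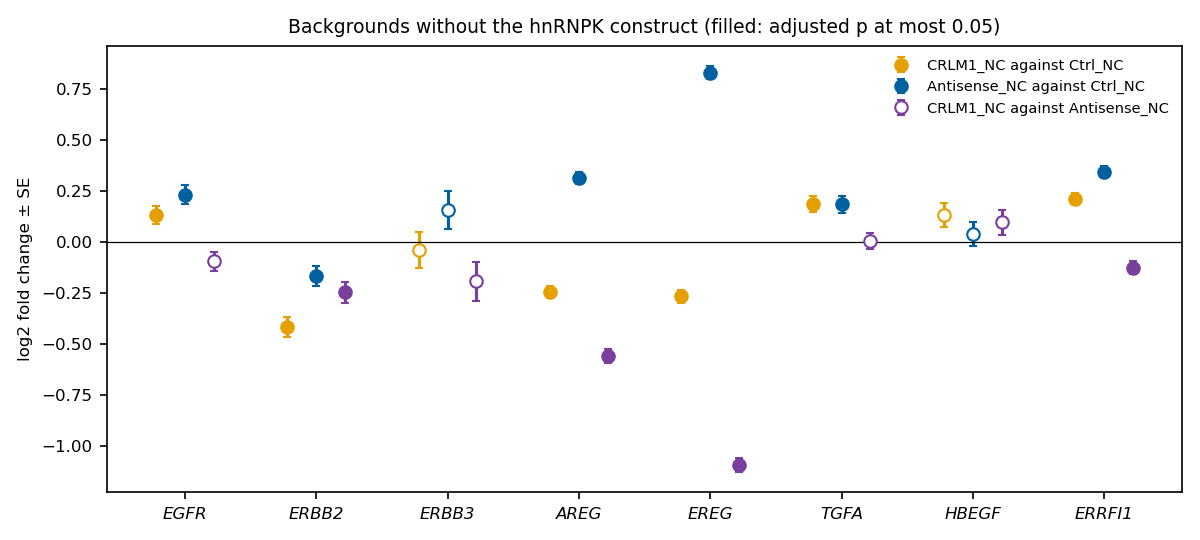
Log2 fold change ± SE of each member between the 3 backgrounds without the construct (3 libraries a group), with filled points at adjusted p of at most 0.05. EREG moves by -0.27 in CRLM1_NC and by 0.83 in Antisense_NC against Ctrl_NC, and AREG by -0.25 and 0.32.

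In CRLM1_NC against Ctrl_NC, 3 members rose and 3 fell, while 16.9% of 14459 genes tested rose and 17.4% fell, 34.3% in all. ERBB2 fell by 0.42 on the log2 scale (SE 0.0487, adjusted p = 6.36e-09), EREG by 0.27 (SE 0.0313, adjusted p = 7.31e-09) and AREG by 0.25 (SE 0.0299, adjusted p = 1.44e-08). ERRFI1 rose with a log2 fold change of 0.21 (SE 0.0273, adjusted p = 4.33e-08) and TGFA with 0.19 (SE 0.0377, adjusted p = 1.17e-04). EGFR rose least (0.13, SE 0.0439, adjusted p = 0.0148), and this call was lost without Ctrl_NC replicate 2 (adjusted p = 0.119) or CRLM1_NC replicate 2 (adjusted p = 0.0621) with adjusted p values between 0.0048 and 0.175 in the 12 alternatives. HBEGF (0.13, adjusted p = 0.0776) and ERBB3 (-0.037, adjusted p = 0.789) did not pass.

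In Antisense_NC against Ctrl_NC, 5 members rose and 1 fell, beside 34.4% and 32.2% of all 14389 genes (66.5% in all). EREG showed the widest shift of the members, a log2 fold change of 0.83 (SE 0.0328, adjusted p = 1.14e-22). The fold changes were 0.34 for ERRFI1 (SE 0.0296, adjusted p = 9.73e-13), 0.32 for AREG (SE 0.0299, adjusted p = 1.07e-11), 0.23 for EGFR (SE 0.0469, adjusted p = 4.52e-05) and 0.19 for TGFA (SE 0.0408, adjusted p = 1.44e-04). ERBB2 fell by 0.16 (SE 0.0478, adjusted p = 0.00281). ERBB3 (0.16, adjusted p = 0.130) and HBEGF (0.039, adjusted p = 0.565) did not pass.

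Directly compared, CRLM1_NC was below Antisense_NC for 4 members and above it for 0, beside 29.5% and 26.9% of 14364 genes (56.4% in all). EREG fell by 1.09 on the log2 scale (SE 0.0342, adjusted p = 7.82e-26) and was the 1 member past 2-fold, as were 7.18% of genes. AREG fell by 0.56 (SE 0.0331, adjusted p = 4.37e-17), ERBB2 by 0.25 (SE 0.0523, adjusted p = 1.22e-04) and ERRFI1 by 0.12 (SE 0.0304, adjusted p = 6.76e-04). The 3 comparisons share libraries, so they are not independent of each other.

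Genes of different GC content shifted in these comparisons. In Antisense_NC against Ctrl_NC, the median log2 fold change was 0.32 over 2317 genes of at most 40% GC and -0.20 over 4484 genes of at least 55% GC. With a smooth trend on GC content and transcript length removed, EREG was at 0.47 (adjusted p = 5.89e-18), AREG at 0.38 and ERRFI1 at 0.19, and all 3 still passed, whereas TGFA did not (0.058, adjusted p = 0.172), where 64.5% of genes passed. In CRLM1_NC against Ctrl_NC the medians were 0.057 and -0.050, 33.5% of genes passed after removal, and EGFR no longer did (0.081, adjusted p = 0.155), while ERBB2 (-0.42), AREG (-0.25) and EREG (-0.34) did. In CRLM1_NC against Antisense_NC, EREG was then at -0.81 (adjusted p = 1.55e-24), which leaves 0 members past 2-fold, and ERRFI1 was at -0.022 (adjusted p = 0.542), beside 53.3% of genes past the test. Some members passed anew after removal. HBEGF did against Ctrl_NC in CRLM1_NC (0.16, adjusted p = 0.0368) and in Antisense_NC (0.12, adjusted p = 0.0468), and EGFR (-0.13, adjusted p = 0.0109) and ERBB3 (-0.22, adjusted p = 0.0450) did in CRLM1_NC against Antisense_NC.

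The next comparisons asked what the hnRNPK construct changed in each background. In the Antisense background, where the 3 construct libraries stayed together, EREG, ERRFI1, AREG, EGFR, HBEGF and TGFA rose and ERBB2 fell. In the Ctrl and CRLM1 backgrounds no gene of the table passed with all libraries. Without replicate 3 of each construct group, ERBB2 and EGFR fell and EREG and ERRFI1 rose in both, while HBEGF fell in Ctrl and rose in CRLM1.

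**Figure D4:**
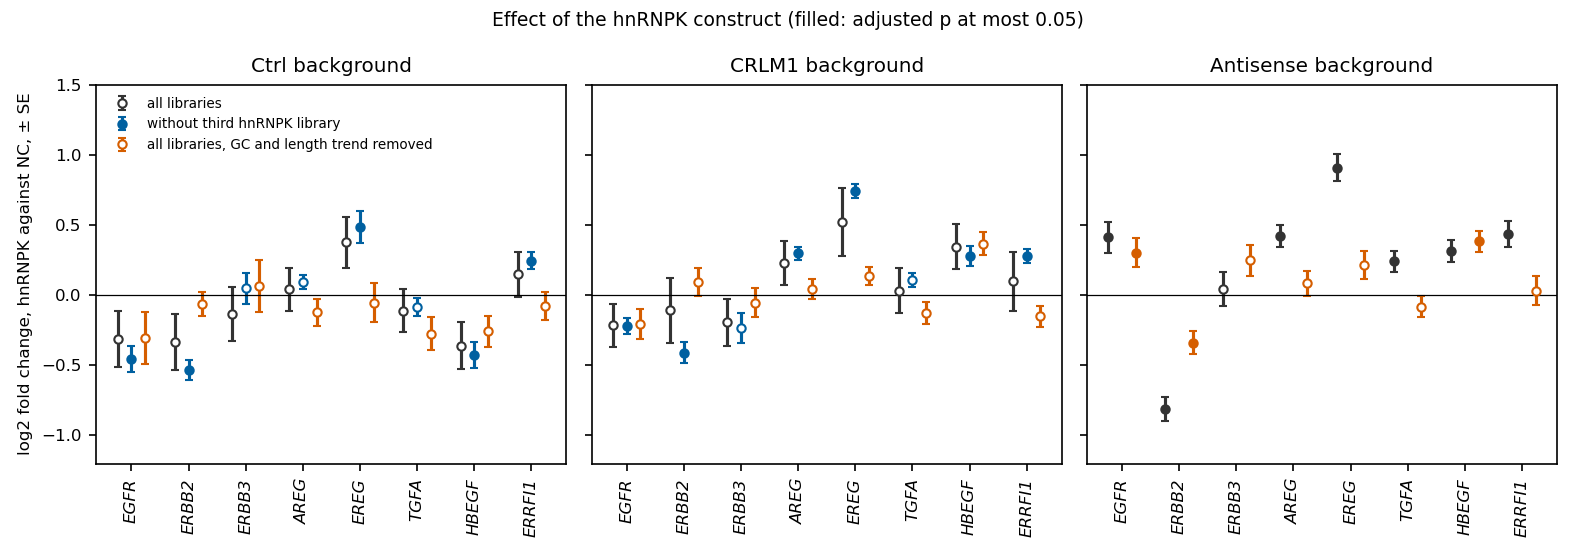
Log2 fold change ± SE of each member, hnRNPK against NC, in the Ctrl, CRLM1 and Antisense backgrounds, with filled points at adjusted p of at most 0.05. Colours give all libraries, the fit without replicate 3 of the construct group (Ctrl and CRLM1 only) and the fit with the GC and length trend removed. EREG in Antisense is at 0.91 with all libraries and at 0.21 after removal, whereas HBEGF is at 0.31 and 0.38.

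In Antisense_hnRNPK against Antisense_NC, 6 members rose and 1 fell, beside 33.4% and 30.5% of 14501 genes (63.9% in all), and 0 members passed 2-fold, as 13.4% of genes did. EREG rose with a log2 fold change of 0.91 (SE 0.0960, adjusted p = 2.00e-06), ERRFI1 with 0.44 (SE 0.0948, adjusted p = 0.00106), AREG with 0.42 (SE 0.0792, adjusted p = 3.36e-04) and EGFR with 0.41 (SE 0.111, adjusted p = 0.00506). HBEGF rose with 0.31 (SE 0.0780, adjusted p = 0.00272). TGFA rose with 0.24 (SE 0.0731, adjusted p = 0.0101), a call lost without Antisense_NC replicate 3 (adjusted p = 0.0748; 0.0125 to 0.538 over 12 alternatives). ERBB2 fell by 0.81 (SE 0.0849, adjusted p = 1.83e-06). ERBB3 was at 0.045 (adjusted p = 0.759).

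Shifts over all genes went with the base composition of the transcripts. In the Antisense background the median log2 fold change was 0.69 over 2380 genes of at most 40% GC and -0.58 over 4421 genes of at least 55% GC. EREG, the member of lowest GC content, rose most, and ERBB2, the member of highest GC content, fell. Between them, the values of ERRFI1 (43.5% GC, 0.44), AREG (45.3% GC, 0.42) and EGFR (47.8% GC, 0.41) fell with rising GC content. Those of HBEGF (50.6% GC, 0.31) and ERBB3 (52.6% GC, 0.045) continued this order. TGFA (44.5% GC, 0.24) was out of it, below AREG, EGFR and HBEGF. With the GC and length trend removed, 3 members passed (39.2% of genes did): HBEGF at 0.38 (adjusted p = 0.00156), EGFR at 0.30 (adjusted p = 0.0355) and ERBB2 at -0.34 (adjusted p = 0.00601). EREG (0.21, adjusted p = 0.110), AREG (0.083, adjusted p = 0.475), ERRFI1 (0.032, adjusted p = 0.828) and TGFA (-0.083, adjusted p = 0.394) did not. In the Ctrl and CRLM1 backgrounds 0 members passed after removal, as did 0% and 0.257% of genes. All libraries entered these fits, in which 0 members passed before removal too. The fits without replicate 3 were not repeated with the trend removed, so their calls were not examined for it. The source of the trend, and its part in these shifts, was not tested.

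In Ctrl_hnRNPK against Ctrl_NC, 0 of 8 members and 0 of 14607 genes (0%) passed in edgeR, with 2246 genes at an unadjusted p under 0.05 and a smallest adjusted p of 0.320. DESeq2 also called 0 members. Without replicate 3, 59.6% of genes passed and 5 members did. ERBB2 fell by 0.54 (SE 0.0712, adjusted p = 4.35e-06), EGFR by 0.45 (SE 0.0922, adjusted p = 3.84e-04) and HBEGF by 0.43 (SE 0.0944, adjusted p = 8.10e-04). EREG rose with 0.49 (SE 0.113, adjusted p = 0.00490) and ERRFI1 with 0.25 (SE 0.0599, adjusted p = 0.00182). The GC medians were 0.70 (low) and -0.55 (high) in this fit.

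In CRLM1_hnRNPK against CRLM1_NC, 0 members and 0 of 14394 genes (0%) passed in edgeR with all libraries, with 1332 genes at an unadjusted p under 0.05 and a smallest adjusted p of 0.533. DESeq2 called 0 members here too. Without replicate 3, 58.5% of genes and 6 members passed. EREG rose with 0.74 (SE 0.0483, adjusted p = 2.70e-13), AREG with 0.30 (SE 0.0491, adjusted p = 6.68e-06), HBEGF with 0.28 (SE 0.0700, adjusted p = 0.00102) and ERRFI1 with 0.28 (SE 0.0481, adjusted p = 1.27e-05). ERBB2 fell by 0.41 (SE 0.0721, adjusted p = 1.64e-05) and EGFR by 0.22 (SE 0.0587, adjusted p = 0.00183). The GC medians were 0.64 and -0.50.

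Whether the construct's effect differed between backgrounds was tested by the interaction term. With all libraries, 0 members passed in each of 3 such tests, while 0%, 0% and 1.12% of genes did (CRLM1 minus Ctrl, Antisense minus Ctrl, CRLM1 minus Antisense). At an unadjusted p under 0.05 were 221, 2179 and 3115 genes. Without replicate 3 of Ctrl_hnRNPK and CRLM1_hnRNPK, HBEGF and EGFR were the members that differed most between backgrounds.

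For HBEGF, the difference of the log2 fold changes in that fit was 0.74 (SE 0.117, adjusted p = 6.83e-04) for CRLM1 minus Ctrl, where 3.45% of genes passed, and 0.72 (SE 0.123, adjusted p = 0.00205) for Antisense minus Ctrl, where 6.62% did. With all libraries the same differences were 0.67 (SE 0.213, adjusted p = 0.9998) and 0.64 (SE 0.181, adjusted p = 0.175) and did not pass. Between CRLM1 and Antisense, HBEGF differed by -0.019 (SE 0.109, adjusted p = 0.929). Each Ctrl_hnRNPK library was below the Ctrl_NC libraries and each library of the other 2 construct groups above its NC libraries, replicate 3 included. How many of all genes were separated in this way was not counted, so this describes HBEGF only.

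For EGFR, the difference was 0.85 (SE 0.156, adjusted p = 0.00338) for Antisense minus Ctrl and -0.62 (SE 0.136, adjusted p = 0.00359) for CRLM1 minus Antisense, where 17.4% of genes passed. With all libraries the values were 0.69 (SE 0.232, adjusted p = 0.216) and -0.63 (SE 0.194, adjusted p = 0.0968) and did not pass. ERBB2 differed by 0.42 (SE 0.116, adjusted p = 0.0166) for CRLM1 minus Antisense without replicate 3, and by 0.70 (adjusted p = 0.1535) with all libraries. With all libraries and the GC and length trend removed, HBEGF passed for Antisense minus Ctrl (0.64, adjusted p = 0.0307, 1.49% of genes), and EGFR (-0.51, adjusted p = 0.0467) and ERBB2 (0.45, adjusted p = 0.0423) passed for CRLM1 minus Antisense (12.2% of genes). No difference for AREG, EREG, TGFA, ERRFI1 or ERBB3 passed in either kind of fit. Without replicate 3, the smallest adjusted p among them was 0.0692 (TGFA, Antisense minus Ctrl).

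The rest of the family was scarce. Of ERBB4, EGF, BTC, EPGN and the neuregulins NRG1 to NRG4, only the ligand gene BTC was tested in every comparison of groups. BTC was at 2.31, 2.04 and 1.69 CPM in Ctrl_NC and rose with the construct in Antisense (log2 fold change 1.36, SE 0.307, adjusted p = 0.00151), at 3.52, 8.24 and 3.95 CPM against 1.72, 2.29 and 2.13 CPM. With the GC and length trend removed, BTC was at 0.70 in Antisense (adjusted p = 0.0909) and did not pass. Without replicate 3 it also rose in Ctrl (1.61, adjusted p = 6.18e-06) and in CRLM1 (1.55, adjusted p = 1.04e-05). EGF had at most 0.701 CPM and ERBB4 at most 0.220 CPM in any library.

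Genes that release ligands, remove receptors or relay the signal were followed as 3 lists. In Antisense_NC against Ctrl_NC, where 34.4% of all genes rose and 32.2% fell, 4 of 7 release genes rose and 1 fell (median log2 fold change 0.65). SPPL2A, an intramembrane protease, rose with 1.34 and ADAM17, the main ligand sheddase, with 1.14, while SPPL2B fell by 0.67. Of 15 genes for receptor downregulation and trafficking, 12 rose and 0 fell (median 0.55), with USP8, a deubiquitinase acting on endosomes, at 1.26 and the ubiquitin ligase CBLB at 1.06. Of 20 adaptors and relay genes, 13 rose and 5 fell (median 0.20), with the exchange factor SOS2 at 1.30, the kinase subunit PIK3CA at 1.10, HRAS at -0.85 and the kinase MAP2K1 at -0.50. The median of all genes tested was -0.00246. With the GC and length trend removed, 64.5% of all genes passed. The counts that rose and fell were then 4 and 2 for release, 10 and 1 for downregulation, and 8 and 7 for relay, where the median was 0.088. Of these, 1, 1 and 0 genes passed 2-fold, against 2, 3 and 3 before removal.

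**Figure D5:**
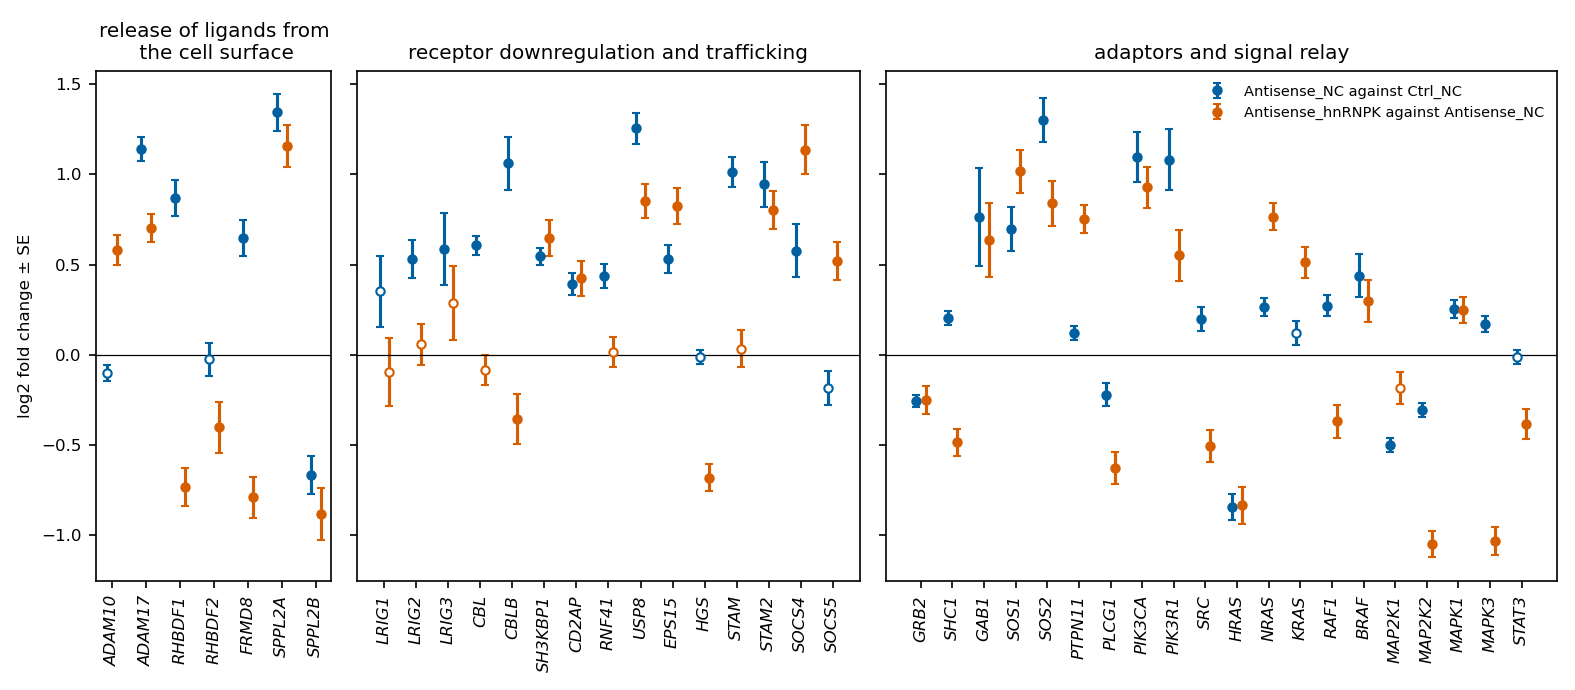
Log2 fold change ± SE of each gene of 3 lists (7, 15 and 20 genes) in Antisense_NC against Ctrl_NC (blue) and in Antisense_hnRNPK against Antisense_NC (orange), with filled points at adjusted p of at most 0.05. SPPL2A and ADAM17 are up in both comparisons, whereas in the orange points HGS is at -0.68 and MAPK3 at -1.03.

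In CRLM1_NC against Ctrl_NC, where 16.9% of all genes rose and 17.4% fell, 2 release genes rose and 2 fell, 6 downregulation genes rose and 0 fell, and 5 relay genes rose and 3 fell. With the trend removed (33.5% of genes passed) the counts were 2 and 2, 5 and 1, and 3 and 5. ADAM17 was at 0.45 and ADAM10, the other ligand sheddase, at -0.40. STAM and CBLB were at 0.61 and 0.59, and SOS1 and PIK3CA at 0.47 and 0.43. Against Antisense_NC, 5, 11 and 9 genes of the 3 lists fell in CRLM1_NC and 1, 1 and 5 rose, beside 29.5% and 26.9% of all genes. SPPL2A was at -1.14, USP8 at -1.09, SOS2 at -1.11 and HRAS at 0.88. With the trend removed (53.3% of genes passed), 4, 8 and 6 fell and 0, 1 and 5 rose, and 0 list genes passed 2-fold, with SPPL2A at -0.86, USP8 at -0.96 and SOS2 at -0.88.

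With the construct in the Antisense background, 3 release genes rose and 4 fell, 7 downregulation genes rose and 2 fell, and 10 relay genes rose and 9 fell, beside 33.4% of all genes that rose and 30.5% that fell. SPPL2A was at 1.16 and SPPL2B at -0.89, SOCS4 at 1.14 and HGS at -0.68, and SOS1 at 1.02 and the kinase MAP2K2 at -1.05. With the GC and length trend removed, the counts were 1 and 0, 3 and 5, and 2 and 6 (39.2% of all genes passed). In the Ctrl and CRLM1 backgrounds 0 list genes passed with all libraries, and without replicate 3 ADAM10 was at 0.79 and 0.93, PTPN11 at 0.97 and 0.95, and MAP2K2 at -0.92 and -0.79.

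The genes with patterns most like the 3 widest-ranging members were found by the root mean square difference of centred log2(CPM + 0.5) over 18 libraries, among 12963 genes. For EREG they were RP11-407N17.3 (0.152), PARP9 (0.160) and EXOSC8 (0.167). AREG was closest to AEBP2 (0.103), PRKAG1 (0.118) and ANXA7 (0.120), and EGFR to NFE2L1 (0.102), IFT43 (0.130) and WDR82 (0.143). AREG and EREG differed by 0.376. The measure also counts the size of shifts, and the root mean square from a flat line was 0.693 for EREG and 0.331 for AREG. In each of the 6 comparisons of groups with all libraries, the log2 fold changes of AREG and EREG had the same sign. These comparisons share libraries, and neither gene passed with the construct in the Ctrl or CRLM1 background. How many pairs of genes share their signs in this way was not counted, and joint regulation was not tested.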

How the data were processed

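RNA-seq was done on 18 libraries of HCT116 cells, prepared with the KAPA RNA HyperPrep kit. The authors trimmed paired-end reads, aligned them with TopHat2 to GRCh38 with Gencode version 23 and counted uniquely mapped reads per gene, and the deposited count table holds whole numbers. Whether counting used strand is not given in the sources used here. The deposited FPKM table holds the authors' values scaled by exon length and mapped fragments. FPKM was used only for levels between genes. CPM used TMM factors and library sizes from the filtered genes of all libraries.

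Counts were tested in R 4.3.3 with edgeR 4.0.16 (filterByExpr, TMM, robust quasi-likelihood F-test, two-sided), with Benjamini-Hochberg adjustment over all genes. Each of 6 comparisons used its 2 groups, and 3 interaction fits used 4 groups. DESeq2 1.42.0, RLE scaling, no filter, a replicate block, removal of a GC and length trend (splines with 5 degrees of freedom, Gencode version 44 transcripts, 96.8% of genes matched) and leaving out each library were alternatives. Scripts were tested on simulated data. Library pairs were compared, and 0 of 153 were identical.

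The 8 members and the lists were chosen with earlier results of these data known. Named genes are the members, HNRNPK, at most the 2 highest and 2 lowest list genes past the test in a comparison, and the 3 genes most like each of the 3 widest-ranging members. BTC is the tested gene of its list. The promoter motifs, and HGS and MAPK3 in the plot of the lists, were picked after values were seen. Intervals and standard errors cover the spread between these libraries.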

Additional observations from a re-analysis of the deposited data

How the results depend on the processing

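The number of members past the test kept within 1.5 times its value under RLE scaling, no filter and the replicate block in all 9 fits. Under the replicate block the numbers were 6 (CRLM1_NC against Ctrl_NC), 4 (CRLM1_NC against Antisense_NC), 6 (Antisense_NC against Ctrl_NC), 0 (Ctrl background), 0 (CRLM1 background), 7 (Antisense background) and 0 in each interaction. Same-numbered libraries of the 2 groups in a comparison did not deviate together (18 correlations from -0.120 to 0.0666). The numbers were therefore not read as pairs. Construct groups of different backgrounds were not compared in this way. Among them, replicate 3 of Ctrl_hnRNPK and of CRLM1_hnRNPK each stood nearer to its NC libraries than to its own group. Leaving out each library in turn gave 5 to 6, 4 to 6 and 6 to 7 members for the 3 comparisons without the construct. It gave 0 to 5 (Ctrl), 0 to 6 (CRLM1) and 6 to 7 (Antisense) for the construct, and 0 to 0, 0 to 2 and 0 to 2 for the interactions. The high ends for Ctrl and CRLM1 came from leaving out replicate 3 of the construct group. With the GC and length trend removed, with or without the replicate block, 3 members passed in the Antisense background. For the interaction Antisense minus Ctrl, 1 member passed with DESeq2 (HBEGF, 0.66, adjusted p = 0.0250), 1 with the trend removed (HBEGF, 0.64, adjusted p = 0.0307) and 1 with the block added. For CRLM1 minus Antisense, 1 passed with DESeq2 (EGFR, -0.65, adjusted p = 0.0163), 2 with the trend removed (EGFR, -0.51, and ERBB2, 0.45) and 1 without CRLM1_hnRNPK replicate 1. With replicate 3 of both construct groups left out, the interactions gave 1, 2 and 2. The cause of these changes was not tested.

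Of the log2 fold changes under the alternatives, 940 stayed on the same side of the threshold in the same direction, 37 passed anew, 15 no longer passed and 40 changed sign, none of which passed after the change. With the trend removed, and in brackets with the replicate block added, the changed signs in the Ctrl background were ERBB3 0.064 (0.031), AREG -0.12 (-0.13), EREG -0.056 (-0.077) and ERRFI1 -0.080 (-0.087). In the CRLM1 background they were ERBB2 0.093 (0.084), TGFA -0.13 (-0.13) and ERRFI1 -0.15 (-0.16), and in Antisense TGFA -0.083 (-0.083). HBEGF was at -0.013 (-0.012) for CRLM1 minus Antisense. With no filter TGFA was at -0.012 in CRLM1_NC against Antisense_NC. With replicate 3 of both construct groups left out, ERRFI1 was at 0.061 (CRLM1 minus Ctrl), ERBB3 at -0.021 (Antisense minus Ctrl) and HBEGF at -0.019 (CRLM1 minus Antisense).

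The values that changed sign when a library was left out ranged as follows. TGFA ran from -0.019 to 0.022 in CRLM1_NC against Antisense_NC. With the construct, ERBB3 ran from -0.29 to 0.047 in Ctrl and from -0.063 to 0.17 in Antisense. In CRLM1, ERBB2 ran from -0.41 to 0.036, TGFA from -0.030 to 0.10 and ERRFI1 from -0.070 to 0.28. For CRLM1 minus Ctrl the ranges were -0.088 to 0.25 (EGFR), -0.076 to 0.44 (ERBB2), -0.23 to 0.066 (ERBB3), -0.057 to 0.36 (EREG) and -0.23 to 0.13 (ERRFI1). They were -0.021 to 0.31 for ERBB3 (Antisense minus Ctrl) and -0.021 to 0.094 for HBEGF (CRLM1 minus Antisense). ERBB3, with 306 to 843 counts per library, had the widest standard errors of the members in the comparisons without the construct.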
